A study of Caenorhabditis elegans with 9 samples.

Results

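The C-type lectin family of Caenorhabditis elegans, the genes whose symbols start with clec-, was followed across animals mutant for both Piwi genes, prg-1 and prg-2. Members were the probe sets that name a single gene of this family in the platform annotation, with the probe set of the highest mean over all arrays kept for each gene. This gave 220 genes out of 17118 genes measured, from 236 probe sets, and a further 22 probe sets that name several genes at once were set aside. By the RefSeq gene table (assembly WBcel235), 202 members are protein-coding and 18 are listed as pseudogenes.

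Messenger RNA of whole young adult animals was measured on 9 Affymetrix arrays, 3 per group. Strain SX9 carries prg-1(n4503) and prg-2(nDf57), strain MT14769 carries prg-1(n4357) and prg-2(n4358), and N2 is the standard wild-type strain; no treatment is given for any group, and the labels do not say what each allele removes. prg-1 encodes a Piwi-class Argonaute, the protein partner of the germline small RNAs called piRNAs. The design sets animals mutant for both genes against wild type, with a separate pair of alleles in each strain. Values are RMA levels on the log2 scale, so a difference of 1 is a 2-fold change. The labels do not say whether replicates are separate cultures. The p-values therefore reflect the spread among these samples alone, which may be technical, and the number of arrays limits the precision.

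C-type lectins share a protein fold that in many animals binds sugars on cell surfaces and on microbes. In worms the family is large, most members carry a signal for secretion, and many are made in the intestine, where distinct subsets are switched on by distinct bacteria. They are therefore widely used as markers of the worm's innate immune response, together with lysozymes and saposin-like proteins. For most members no role has been assigned.

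Most members gave weak signals. Their median level was 4.04 log2, against 4.82 log2 over all 22548 probe sets, and levels ran from 2.68 to 12.52 log2. When all probe sets were divided into 4 equal classes by mean level, 75 members fell in the lowest class, 87 in the next, 28 in the next and 30 in the highest. Of all members 22 exceeded 8 log2. The 8 members with the highest signals were clec-63, clec-50, clec-1, clec-150, clec-83, clec-265, clec-48 and clec-62, with means from 12.52 log2 for clec-63 to 9.42 log2 for clec-62. Probe sets differ in how brightly they report a transcript, so this order is one of array signal and not of messenger abundance. RMA compresses differences near the lower end of the scale, where most of the family lies.

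The genome holds much of the family in clusters. By the RefSeq gene order, 97 members lay in 33 runs of adjacent protein-coding members, and 123 stood alone. The 123 include the 18 pseudogenes, which this rule could not place in a run. Chromosome V held 77 members, II 47, IV 45, I 31, III 17 and X only 3. The longest runs held 7 genes, clec-93 to clec-99 on chromosome I and a run from clec-127 to clec-134 on chromosome II. In the run of clec-62, clec-63, clec-64, clec-65 and clec-66 on chromosome II, mean array signals ran from 4.42 to 12.52 log2. Differences from wild type within that run were all positive, from 0.11 to 0.64 log2 in n4503 nDf57 and from 0.06 to 0.43 log2 in n4357 n4358. Of the 220 members, 29 are read by probe sets of the kind that can detect related genes, and the signal of those may be shared with close relatives.

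Markers of developmental stage differed between arrays of the same group. The mean of 24 moulting genes, which peak before each moult, deviated from its average by -0.78, 0.44 and 0.34 log2 on n4503 nDf57 replicates 1 to 3, by 0.49, 0.26 and -0.85 log2 in n4357 n4358, and by 0.40, -0.58 and 0.28 log2 in wild type. Thus 1 array of each group stood low. The mean of 23 major sperm protein genes deviated by 0.37, -0.89 and -1.44 log2 in n4503 nDf57, by 0.49, -2.15 and 1.05 log2 in n4357 n4358, and by 0.81, 1.42 and 0.33 log2 in wild type. Yolk genes, which the adult intestine makes in bulk, had a list level of 4.39 to 5.69 log2 in n4503 nDf57, 4.37 to 5.28 log2 in n4357 n4358 and 4.54 to 6.52 log2 in wild type, with array medians of 4.76 to 4.83 log2. Markers of intestine moved little, between -0.12 and 0.16 log2. No 2 arrays were identical, and correlations between arrays ran from 0.946 to 0.994 over all probe sets. The part of these list values in the results that follow was tested only by the covariate fits stated beside them.

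In both mutants against wild type, the higher members with the smallest p were clec-61, a gene of the response to bacteria, clec-82, clec-47, clec-174 and clec-5. The lower ones were clec-51, clec-86 and clec-150. None of the 220 members passed an adjusted p of 0.05 in the limma fit, as was the case for 0 of 22548 probe sets (0% called), with an adjusted p of 0.999 for each of these genes. At an unadjusted p under 0.05, 8 members (3.64%) stood higher, where the share of all probe sets was 1.88%, and 3 members (1.36%) stood lower, where that share was 1.73%. In whole animals, fewer cells of a type and less RNA per cell cannot be told apart.

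clec-61, a gene that Staphylococcus aureus infection induces, lies on chromosome II. It stood at 5.90, 6.16 and 5.99 log2 in n4503 nDf57, at 5.52, 5.56 and 5.51 log2 in n4357 n4358, and at 5.07, 5.39 and 5.46 log2 in wild type. None of the 6 mutant arrays overlapped with wild type, although the margin between n4357 n4358 and the highest wild-type array was narrow. The mean of both mutants was 0.47 log2 above wild type (SE 0.11), a 1.38-fold higher level. This probe set is of the kind that can detect related genes. clec-60, which the same infection and Microbacterium nematophilum induce, has a probe set of the other kind. It stood at 8.62, 8.06 and 8.61 log2 in n4503 nDf57, at 8.12, 7.82 and 8.75 log2 in n4357 n4358, and at 6.93, 8.07 and 7.92 log2 in wild type, so the groups overlapped. Its mean difference was 0.69 log2 (SE 0.30).

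clec-82, on chromosome IV, stood at 5.06, 4.89 and 5.46 log2 in n4503 nDf57, at 4.07, 4.63 and 5.21 log2 in n4357 n4358, and at 3.83, 4.22 and 3.89 log2 in wild type. The n4357 n4358 arrays were spread widely, and the lowest of them lay among the wild-type arrays. The mean difference was 0.90 log2 (SE 0.24), a 1.87-fold higher level. clec-174, also on chromosome IV, was 0.76 log2 higher (SE 0.22) and clec-145 on chromosome II was 0.41 log2 higher (SE 0.14), both read by probe sets that can detect related genes. The difference of clec-174 came to 0.49 log2 without wild-type replicate 3, the array on which it was lowest. clec-145 stood at 4.93, 4.72 and 4.63 log2 in n4503 nDf57, at 4.57, 4.94 and 5.21 log2 in n4357 n4358, and at 4.36, 4.47 and 4.44 log2 in wild type, without overlap between mutants and wild type. Members whose mutant arrays were all higher than the wild-type arrays numbered 2 (0.909%), clec-61 and clec-145, beside 1.05% of all probe sets.

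clec-5, on chromosome III, stood at 8.69, 8.60 and 9.03 log2 in n4503 nDf57, at 9.20, 9.88 and 8.22 log2 in n4357 n4358, and at 7.20, 8.32 and 8.0 log2 in wild type. A single n4357 n4358 array overlapped with wild type. The probe set of clec-5 is of the kind that can detect related genes. The mean difference was 1.09 log2 (SE 0.37), and 0.69 log2 with the sperm gene mean as a covariate. For clec-10 on chromosome II the mean difference was 0.62 log2 (SE 0.26), 0.68 log2 in its other probe set, and 0.30 log2 with the sperm gene mean as a covariate. The sperm genes themselves stood lower in both mutants, with a median of -1.32 log2 and 0 of 23 positive. Fits with their mean, here and below, therefore cannot fully separate the part of the sperm genes from that of genotype.

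clec-51, on chromosome IV, stood at 8.64, 8.74 and 9.06 log2 in n4503 nDf57, at 8.55, 8.91 and 8.34 log2 in n4357 n4358, and at 9.27, 9.53 and 9.07 log2 in wild type. The groups did not overlap, although the highest n4503 nDf57 array and the lowest wild-type array differed by little. The mean difference was -0.58 log2 (SE 0.16), a level of 0.668 times wild type. It was the only member (0.455%) with all mutant arrays below all wild-type arrays, beside 0.803% of all probe sets. clec-86, which Microbacterium nematophilum induces and which lies on the X chromosome, stood at 6.53, 6.55 and 6.92 log2 in n4503 nDf57, at 6.64, 5.99 and 6.34 log2 in n4357 n4358, and at 6.70, 7.85 and 7.16 log2 in wild type. Its mean difference was -0.74 log2 (SE 0.25), and -0.44 log2 without wild-type replicate 2, the array on which it was highest. clec-150, among the brightest members and on chromosome III, differed by -0.47 log2 (SE 0.17), by -0.41 log2 in its other probe set and by -0.31 log2 with the sperm gene mean as a covariate. That covariate gave differences larger in size for clec-51 (-0.75 log2), clec-174 (1.03 log2), clec-82 (0.94 log2) and clec-145 (0.47 log2). It gave smaller ones for clec-61 (0.43 log2), clec-47 (0.95 log2) and clec-86 (-0.59 log2). Without wild-type replicate 1, 6 members stood higher and 7 lower at an unadjusted p under 0.05, beside 2.85% and 2.63% of all probe sets. Without n4357 n4358 replicate 3 these counts were 7 and 5, beside 2.59% and 2.08%.

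**Figure D1:**
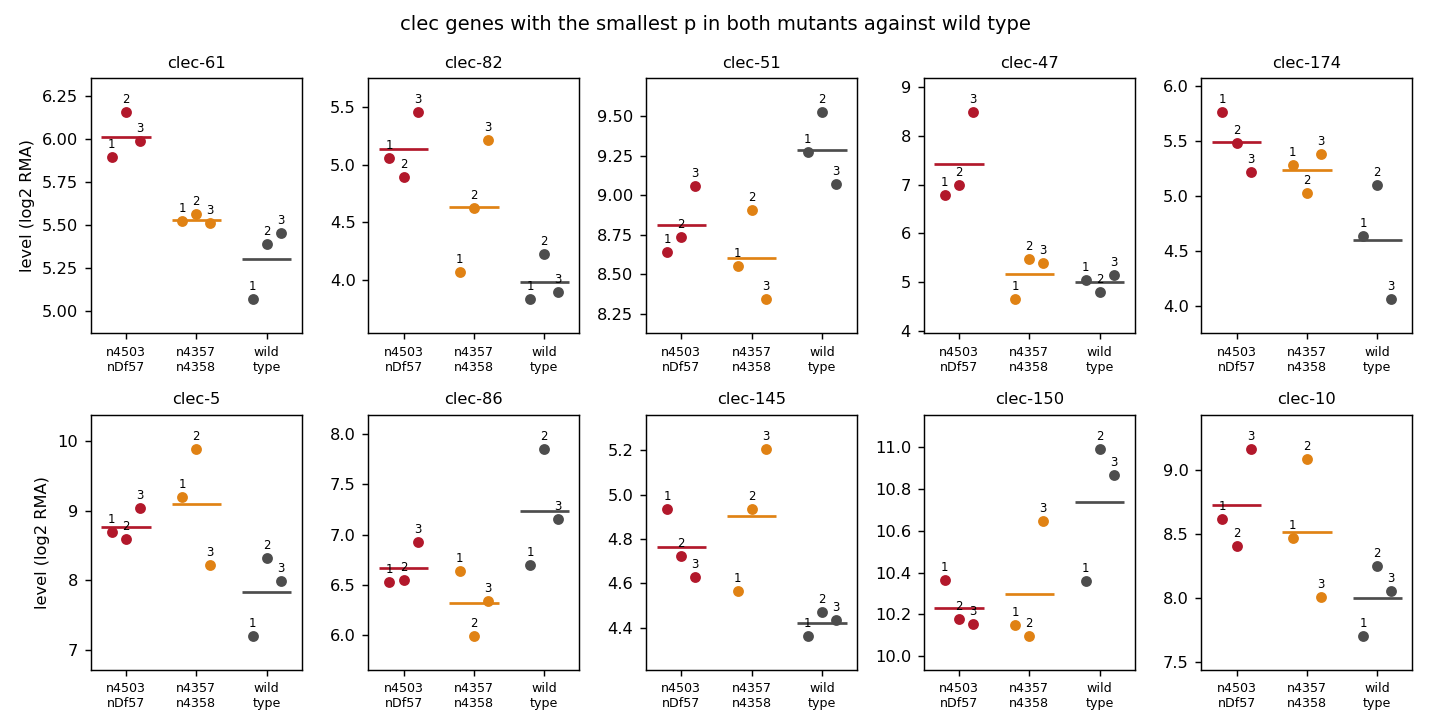
Levels (log2 RMA, vertical axis, scaled separately in each panel) of the 10 clec genes with the smallest p in both mutants against wild type, on the 3 arrays of n4503 nDf57, n4357 n4358 and wild type. Points are arrays with their replicate numbers and bars are group means. clec-61 and clec-145 show all mutant arrays above wild type, clec-51 shows all below, and clec-47 is high in n4503 nDf57 alone, with a mean of 7.42 log2 there, 5.18 log2 in n4357 n4358 and 5.0 log2 in wild type.

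In n4503 nDf57 against wild type, the members with the smallest p were clec-47, clec-61 and clec-82. None passed an adjusted p of 0.05 (limma adjusted p = 1 for each; 0 of 22548 probe sets, 0%). At an unadjusted p under 0.05, 12 members (5.45%) stood higher, with 1.72% of all probe sets doing so, and 2 members (0.909%), clec-51 and clec-150, stood lower, with 1.11% of all probe sets doing so. All arrays of this strain lay above all wild-type arrays for 15 members (6.82%, with 4.02% of all probe sets) and below them for 7 members (3.18%, with 2.56%). Over single arrays left out, the count of 12 ran from 7 to 16. It was 7 without n4503 nDf57 replicate 2 or 3 or wild-type replicate 1, beside 1.15%, 1.4% and 2.16% of all probe sets. It was 16 without n4357 n4358 replicate 3, beside 2.36%. The count of 2 was 0 without n4503 nDf57 replicate 2 or wild-type replicate 2, beside 0.692% and 0.492%. Without wild-type replicate 1 it was 5, beside 1.72%. Since both strains were set against the same 3 wild-type arrays, their differences share the error of those arrays.

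clec-47, on chromosome V, stood at 6.79, 6.99 and 8.48 log2 in n4503 nDf57, at 4.65, 5.48 and 5.40 log2 in n4357 n4358, and at 5.04, 4.79 and 5.15 log2 in wild type. Every n4503 nDf57 array lay above every other array by more than 1 log2 unit, and replicate 3 stood highest. The difference of n4503 nDf57 from wild type was 2.43 log2 (SE 0.43), a 5.38-fold higher level, and that of n4357 n4358 was 0.18 log2 (SE 0.43). Without n4503 nDf57 replicate 3 the difference was 1.90 log2. With the moulting gene mean as a covariate it was 2.43 log2 (SE 0.42), and with the sperm gene mean 2.01 log2 (SE 0.45).

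clec-4, a gene of the response to Pseudomonas aeruginosa on chromosome II, stood at 7.81, 7.11 and 6.66 log2 in n4503 nDf57, at 5.43, 5.63 and 7.49 log2 in n4357 n4358, and at 5.56, 5.64 and 6.13 log2 in wild type. All 3 n4503 nDf57 arrays were above wild type, and in n4357 n4358 only replicate 3 was. The difference of n4503 nDf57 from wild type was 1.42 log2 (SE 0.53), and 1.40 log2 (SE 0.36) with the moulting gene mean as a covariate. With the sperm gene mean instead it was 1.98 log2 (SE 0.54). clec-61 was 0.71 log2 higher in n4503 nDf57 (SE 0.12) and 0.23 log2 higher in n4357 n4358 (SE 0.12). clec-82 was 1.15 log2 higher in n4503 nDf57 (SE 0.28) and 0.65 log2 higher in n4357 n4358 (SE 0.28).

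In n4357 n4358 against wild type, the smallest p-values belonged to clec-51, clec-86 and clec-5. At an unadjusted p under 0.05, 4 members (1.82%) stood higher, with 1.96% of all probe sets doing so, namely clec-5, clec-82, clec-145 and clec-174. A further 3 members (1.36%) stood lower, with 2.03% of all probe sets doing so. These were clec-51, clec-86 and clec-233, and clec-233 was named after its value was seen. No member passed an adjusted p of 0.05 (smallest limma adjusted p 0.883; 0 of 22548 probe sets, 0%). All arrays of this strain lay above wild type for 6 members (2.73%, with 4.36% of all probe sets) and below it for 3 (1.36%, with 4.7%). clec-51 differed by -0.69 log2 (SE 0.19), clec-86 by -0.91 log2 (SE 0.29) and clec-5 by 1.26 log2 (SE 0.42). The count of 4 members higher was 16 without n4357 n4358 replicate 1, beside 3.02% of all probe sets. It was 2 without n4503 nDf57 replicate 2 or wild-type replicate 3, beside 1.48% and 0.887%. Without wild-type replicate 1 it was 1, beside 2.91%. The count of 3 lower was 6 without n4357 n4358 replicate 3 or wild-type replicate 1, beside 1.91% and 2.93%. Without the probe sets that can detect related genes, 1 member stood higher and 3 lower, beside 1.55% and 2.04% of the probe sets left. With the sperm gene mean as a covariate 19 stood higher and 5 lower, beside 5.42% and 6.43% of all probe sets. With the moulting gene mean as a covariate these counts were 10 and 5, beside 4% and 4.44%. The share of members standing higher against that of all probe sets thus differed between these fits.

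The strains were also set against each other. At an unadjusted p under 0.05, 7 members (3.18%) stood higher in n4503 nDf57 than in n4357 n4358, with 1.71% of all probe sets doing so. In the other direction stood 1 member (0.455%), clec-69, named after its value was seen, with 0.758% of all probe sets doing so. No member passed an adjusted p of 0.05 (limma adjusted p = 0.977 for the members named here; 0 of 22548 probe sets, 0%). The strains did not overlap for 8 members higher in n4503 nDf57 (3.64%, with 3.37% of all probe sets) and 3 lower (1.36%, with 2.12%). clec-47 was 2.24 log2 higher in n4503 nDf57 (SE 0.43), a 4.74-fold difference, clec-61 was 0.48 log2 higher (SE 0.12) and clec-178 was 0.55 log2 higher (SE 0.18). clec-178, on chromosome IV, stood at 5.36, 5.80 and 5.78 log2 in n4503 nDf57, at 5.15, 5.14 and 5.01 log2 in n4357 n4358, and at 4.83, 5.35 and 5.37 log2 in wild type, so that only the mutant strains were separate. The count of 7 was 13 without n4357 n4358 replicate 3 and 4 without n4357 n4358 replicate 1, beside 1.95% and 1.51% of all probe sets. It was 3 without n4503 nDf57 replicate 2 or 3, beside 1.12% and 0.634%. The count of 1 was 8 without n4503 nDf57 replicate 1, beside 2.26% of all probe sets. It was 0 without n4503 nDf57 replicate 2 or 3, beside 0.475% and 0.208%. Without n4357 n4358 replicates 1, 2 and 3 in turn it was 13, 6 and 2, beside 2.1%, 2% and 1.44%. With the moulting gene mean as a covariate 10 stood higher and 14 lower in n4503 nDf57 than in n4357 n4358, beside 3.96% and 2.39% of all probe sets.

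The 20 members known from infection studies were described as a list, all of them measured. In both mutants their median difference from wild type was 0.30 log2, with 17 of 20 positive, beside 0.06 log2 over the family with 148 of 220 positive and 0.02 log2 over all probe sets. At an unadjusted p under 0.05, 3 of the 20 stood higher (clec-60, clec-61 and clec-82) and 1 lower (clec-86), beside 1.88% and 1.73% of all probe sets. In n4503 nDf57 the median was 0.30 log2 with 16 of 20 positive, and 6 stood higher, namely clec-4, clec-7, clec-17, clec-41, clec-61 and clec-82, beside 1.72% of all probe sets. The count was 3 without n4503 nDf57 replicate 2 or wild-type replicate 2, beside 1.15% and 0.971% of all probe sets. In n4357 n4358 the median was 0.22 log2 with 17 of 20 positive, and 1 stood higher (clec-82) and 1 lower (clec-86), beside 1.96% and 2.03% of all probe sets. The list mean deviated by 0.33, 0.06 and 0.02 log2 on the n4503 nDf57 arrays, by -0.08, -0.04 and 0.18 log2 on those of n4357 n4358, and by -0.24, -0.04 and -0.19 log2 on those of wild type. Thus the n4503 nDf57 arrays stood above wild type and the n4357 n4358 arrays overlapped with it. The margin was narrow, with the lowest n4503 nDf57 array at 0.02 log2 and the highest wild-type array at -0.04 log2. In each group the list mean was highest on the array with the lowest moulting gene mean. The part of developmental stage in the list mean was not tested.

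Genes of the list known from the same pathogen are given side by side. clec-41 and clec-42, both known from Bacillus thuringiensis infection, differed from wild type by 0.48 log2 (SE 0.19) and 0.21 log2 (SE 0.49) in n4503 nDf57, and by 0.22 log2 (SE 0.19) and 0.13 log2 (SE 0.49) in n4357 n4358. clec-39 and clec-49, which take part in defence against Serratia marcescens, differed by 0.03 log2 (SE 0.13) and 0.13 log2 (SE 0.18) in n4503 nDf57, and by 0.17 log2 (SE 0.13) and -0.31 log2 (SE 0.18) in n4357 n4358. clec-39 gave a signal close to the bottom of the scale, with means of 2.87 log2 in n4503 nDf57, 3.01 log2 in n4357 n4358 and 2.84 log2 in wild type. Among genes of the response to Staphylococcus aureus, clec-52 stood opposite to clec-60 and clec-61, with differences of -1.03 log2 (SE 0.59) in n4503 nDf57 and -0.88 log2 (SE 0.59) in n4357 n4358, and clec-71 was at -0.05 log2 (SE 0.16) and 0.22 log2 (SE 0.16). clec-52 stood at 8.25, 7.20 and 7.67 log2 in n4503 nDf57, at 7.79, 7.87 and 7.90 log2 in n4357 n4358, and at 7.17, 9.72 and 9.32 log2 in wild type. A single wild-type array, replicate 1, lay below all mutant arrays, and the other 2 lay above them all.

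clec-67 and clec-85, targets of the p38 kinase PMK-1, differed by 0.39 log2 (SE 0.26) and 0.30 log2 (SE 0.60) in n4503 nDf57, and by 0.25 log2 (SE 0.26) and 0.47 log2 (SE 0.60) in n4357 n4358. The cluster genes clec-62, clec-63, clec-65 and clec-66 differed by 0.30, 0.12, 0.64 and 0.11 log2 in n4503 nDf57 and by 0.43, 0.27, 0.33 and 0.06 log2 in n4357 n4358, with SEs from 0.16 to 0.43 log2. clec-7 and clec-17 differed by 0.49 log2 (SE 0.18) and 0.32 log2 (SE 0.13) in n4503 nDf57, and by 0.06 log2 (SE 0.18) and 0.04 log2 (SE 0.13) in n4357 n4358. clec-70 had the widest gap between strains in this list, at -0.05 log2 (SE 0.73) in n4503 nDf57 and 1.12 log2 (SE 0.73) in n4357 n4358, and -1.18 log2 (SE 0.73) between n4503 nDf57 and n4357 n4358.

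**Figure D2:**
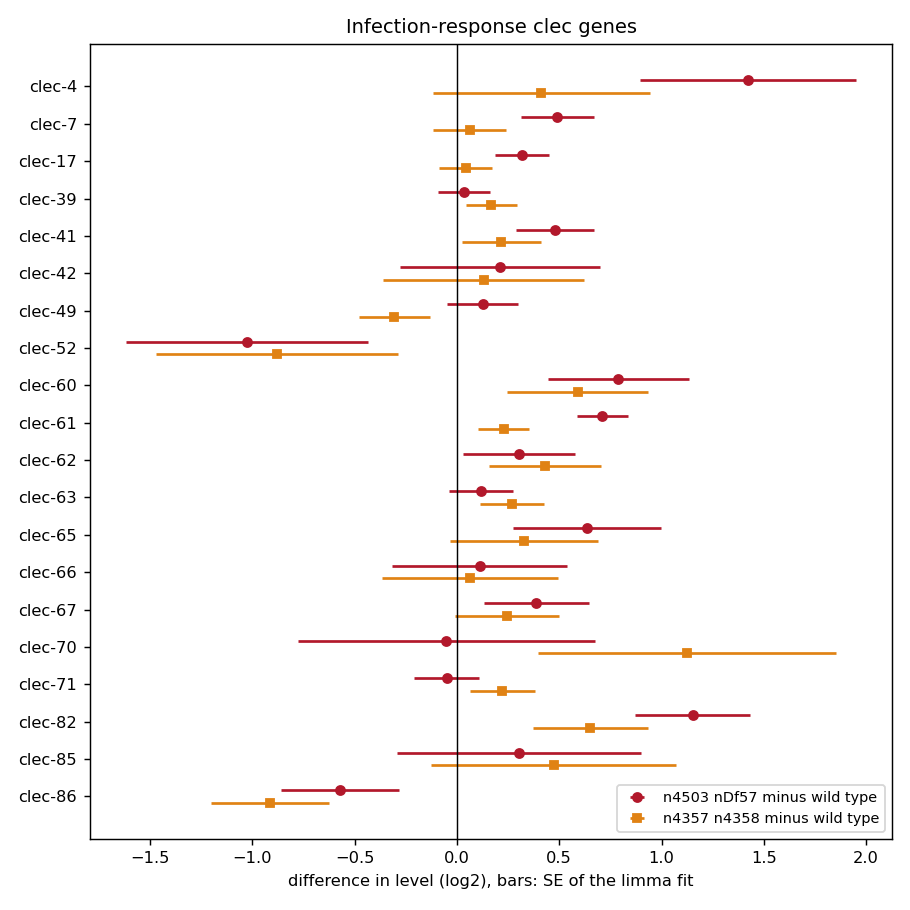
Difference from wild type (log2, horizontal axis) of 20 clec genes known from infection studies, for n4503 nDf57 (red circles) and n4357 n4358 (orange squares). Bars are SEs of the limma fit and the line marks no difference. Points lie to the right for 16 of 20 genes in n4503 nDf57 and for 17 of 20 in n4357 n4358, and clec-52 and clec-86 lie to the left in both strains.

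Across the whole family the median difference was -0.0018 log2 in n4503 nDf57, with 108 members positive and 112 negative, and 0.10 log2 in n4357 n4358, with 161 positive and 59 negative, beside 0.01 and 0.02 log2 over all probe sets. Between n4503 nDf57 and n4357 n4358 the median was -0.11 log2, with 69 positive and 151 negative. The family mean deviated by 0.11, -0.04 and -0.11 log2 on the n4503 nDf57 arrays, by -0.10, -0.03 and 0.29 log2 on those of n4357 n4358, and by -0.09, 0.03 and -0.07 log2 on those of wild type. n4357 n4358 replicate 3 thus stood apart from the 2 other arrays of its strain. Without that array the median of both mutants against wild type was -0.01 log2, in place of 0.06 log2. In n4357 n4358 against wild type it was then -0.02 log2, with 98 positive and 122 negative, and between n4503 nDf57 and n4357 n4358 it was 0.02 log2, with 124 positive and 96 negative. Over all single arrays left out, the median of n4503 nDf57 against wild type ran from -0.07 to 0.04 log2. These values without single arrays were chosen for the strains after the data were seen.

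On n4357 n4358 replicate 3, 35 members (15.9%) lay more than 0.5 log2 above their level on every other array, beside 4.7% of all probe sets. On each of the other 8 arrays 0 to 4 members did so, beside 0.031% to 0.931% of all probe sets. This threshold was set after the values were seen, and the count is given as a description with no test. In the lowest of the 4 level classes 17 of 75 members (22.7%) did so, beside 8.91% of all probe sets there. In the classes above it these were 15 of 87 (17.2%, beside 7.59%), 3 of 28 (10.7%, beside 2.22%) and 0 of 30 (beside 0.0887%). The 35 members thus lay in the low range, with levels from 2.42 to 5.23 log2 on the other arrays and from 3.27 to 6.29 log2 on this one.

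The gap above every other array had a median of 0.72 log2 over the 35 members and reached 1.52 log2. It exceeded 1 log2 for 7 of them, clec-257, clec-126, clec-157, clec-235, clec-92, clec-179 and clec-123, named after their values were seen. clec-257, on chromosome V, stood at 3.91, 3.82 and 3.68 log2 in n4503 nDf57, at 3.55, 3.84 and 5.43 log2 in n4357 n4358, and at 3.90, 3.84 and 3.86 log2 in wild type. The 8 other arrays thus lay between 3.55 and 3.91 log2 and a single array stood out. clec-126, on chromosome II, showed the same picture, with 4.72, 4.15 and 4.51 log2 in n4503 nDf57, 4.38, 4.34 and 5.95 log2 in n4357 n4358, and 4.43, 4.5 and 4.58 log2 in wild type. Just inside the threshold were clec-254 at 0.505 log2 and clec-96 at 0.514 log2, and just outside were clec-193 at 0.470 log2 and clec-266 at 0.469 log2.

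Of the 35 members, 17 lie on chromosome V, which holds 77 of the 220, and 7 lie on I, which holds 31. A further 6 lie on II, 3 on IV, 2 on III and 0 on X, which hold 47, 45, 17 and 3, and 12 of 35 lie in runs of neighbouring members, as do 97 of all 220. Pseudogenes, which could not be counted in runs, made up 6 of the 35, beside 18 of all 220. Of the 35, 1 is read by a probe set that can detect related genes, beside 29 of all 220, and 0 belong to the infection list, which holds 20 of the 220. Their mean deviated by 0.03, -0.13 and -0.24 log2 in n4503 nDf57, by -0.14, -0.11 and 0.88 log2 in n4357 n4358, and by -0.11, -0.06 and -0.13 log2 in wild type. The high mean on n4357 n4358 replicate 3 follows from the rule that chose these members. The same array had the lowest moulting gene mean, at -0.85 log2, and n4503 nDf57 replicate 1 had the next lowest, at -0.78 log2. The mean of the other 185 members was highest on these 2 arrays, at 0.18 log2 and 0.12 log2. The part of developmental stage in the 35 members' levels was not tested.

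**Figure D3:**
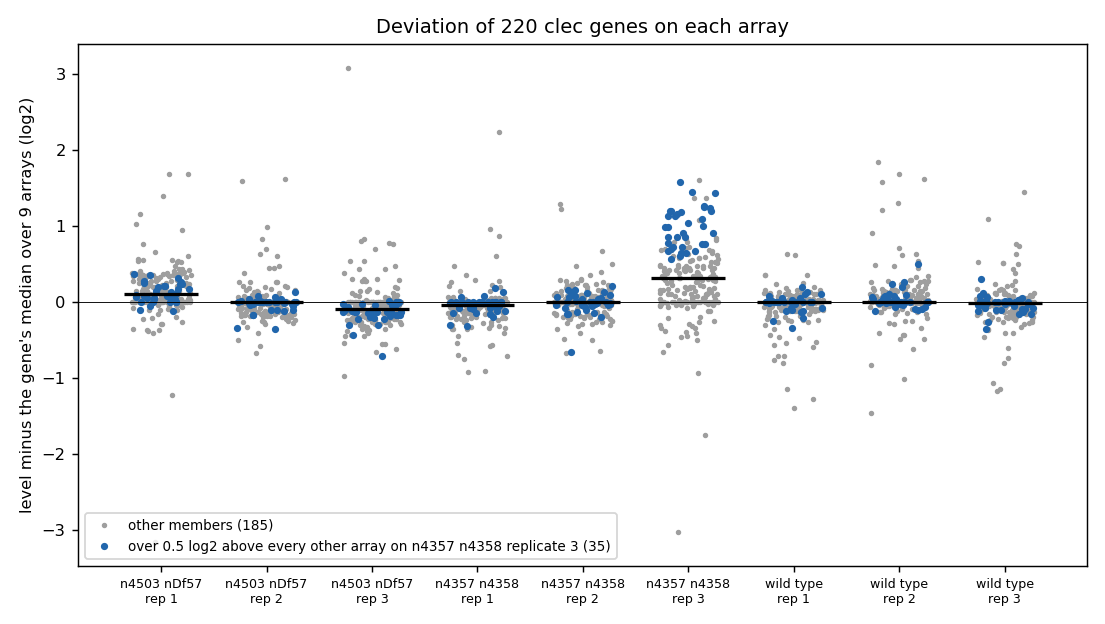
Level of each of the 220 clec genes minus its own median over the 9 arrays (log2, vertical axis), on the arrays of n4503 nDf57, n4357 n4358 and wild type. Bars are medians of all 220 points and blue points are the 35 genes that lay more than 0.5 log2 above every other array on n4357 n4358 replicate 3. The blue points lie near 0 on the other 8 arrays, and their height on n4357 n4358 replicate 3 follows from the rule that chose them.

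A few members varied widely between arrays of the same group. The median SD inside the groups was 0.222 log2 over the family and 0.199 log2 over all probe sets. It exceeded 0.5 log2 for 23 of 220 members, beside 2048 of 22548 probe sets. The largest belonged to clec-180, at 1.67 log2, followed by clec-70 (1.05 log2), clec-230 (0.99 log2), clec-160 (0.89 log2), clec-85 (0.86 log2), clec-52 (0.85 log2), clec-242 (0.76 log2) and clec-4 (0.76 log2). clec-180, on chromosome IV, stood at 5.57, 9.33 and 8.75 log2 in n4503 nDf57, at 8.95, 8.69 and 5.71 log2 in n4357 n4358, and at 8.73, 7.26 and 9.17 log2 in wild type. It was lowest on the same array of each group on which the moulting genes were lowest. clec-230 on chromosome V was highest in each group on that array, at 7.72, 5.71 and 6.03 log2 in n4503 nDf57, 5.50, 5.72 and 7.64 log2 in n4357 n4358, and 5.57, 6.75 and 6.57 log2 in wild type. Wild-type replicate 3, where the moulting genes were not low, came close to replicate 2.

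With the moulting gene mean as a covariate the SE of both mutants against wild type came to 0.24 log2 for clec-180, in place of 1.0 log2 without it. It came to 0.22 log2 in place of 0.60 log2 for clec-230, and to 0.19 log2 in place of 0.46 log2 for clec-242. These 3 members thus varied along with the moulting genes. For clec-160, clec-85, clec-4 and clec-52 the SE came to 0.33, 0.37, 0.31 and 0.44 log2, in place of 0.54, 0.52, 0.46 and 0.51 log2. For clec-70 it hardly moved, at 0.61 log2 in place of 0.63 log2. The differences of both mutants from wild type under this covariate were -0.43 log2 for clec-180, 0.03 log2 for clec-230 and -0.42 log2 for clec-242, and none of the 8 had a limma adjusted p below 0.672.

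**Figure D4:**
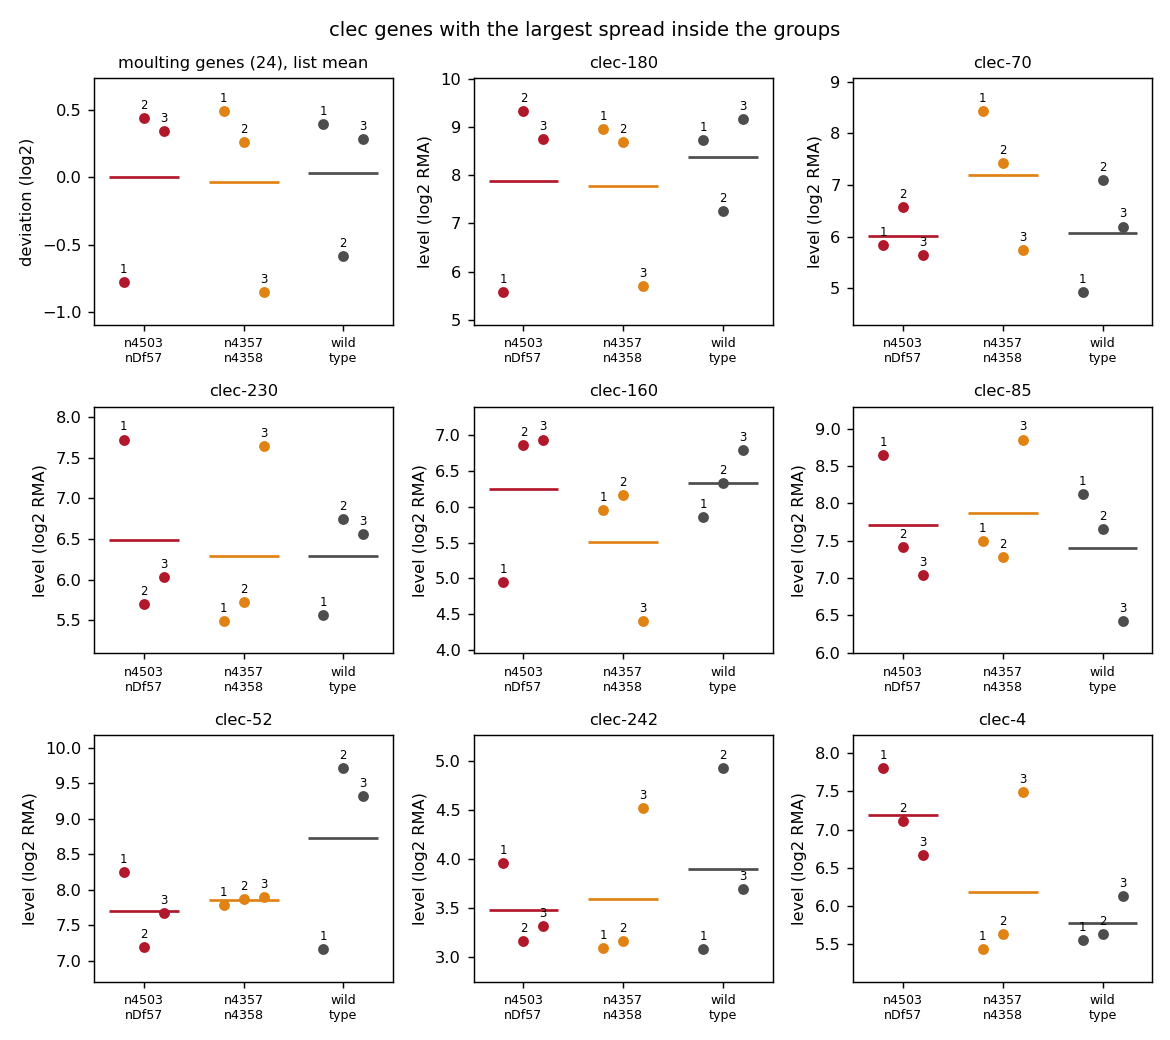
Mean deviation of 24 moulting genes (log2, first panel) and levels (log2 RMA) of the 8 clec genes with the largest SD inside the groups, on the arrays of n4503 nDf57, n4357 n4358 and wild type. Points are arrays with their replicate numbers and bars are group means. clec-180 and clec-160 are low, and clec-230, clec-85 and clec-4 high, on n4503 nDf57 replicate 1 and n4357 n4358 replicate 3, the arrays with the lowest moulting means. On wild-type replicate 2, where that mean is also low, clec-4 is not high within its group.

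Genes that act with the family in immunity were read from lists in both mutants against wild type, and none passed an adjusted p of 0.05 (limma adjusted p = 0.999 for each gene named below). At an unadjusted p under 0.05, 1.88% of all probe sets stood higher and 1.73% lower in this comparison, beside which the counts of these lists are given. Among 26 measured immune regulators of 29 listed, the median difference was 0.01 log2, and 1 stood lower at an unadjusted p under 0.05 and 0 higher. This was sma-2, a Smad protein of the TGF-beta pathway that controls body size and immunity, at -0.51 log2 (SE 0.21). Among 43 measured gut effectors of 52 listed, lysozymes, saposin-like proteins, antibacterial factors and infection response genes, the median was 0.07 log2, with 1 higher and 4 lower. The smallest p was that of irg-3, an infection response gene, at 8.77, 9.31 and 9.29 log2 in n4503 nDf57, 9.79, 9.64 and 9.01 log2 in n4357 n4358, and 10.79, 11.02 and 10.02 log2 in wild type. All mutant arrays lay below wild type, as they did for 0.803% of all probe sets, with a mean difference of -1.31 log2 (SE 0.26). The sign of irg-3 was opposite to the median of the infection-response clec genes. It was also opposite to the median of its own list, where 26 of 43 were positive.

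Galectins, another group of sugar-binding proteins, had a median difference of 0.14 log2 over 12 genes with 0 at an unadjusted p under 0.05, and lec-2 had the smallest p at 0.37 log2 (SE 0.17). Over 14 intestine markers the median was -0.06 log2, with 1 higher, the metallothionein mtl-1 at 0.60 log2 (SE 0.26). Of the 5 measured yolk genes of 6 listed 0 were positive, with a median of -0.48 log2. At an unadjusted p under 0.05, 2 of them stood lower, with vit-4 at -1.61 log2 (SE 0.66). Of 8 muscle genes 8 were positive, with a median of 0.25 log2. At that p 1 of them stood higher, the troponin tni-3 at 0.66 log2 (SE 0.18). Of the moulting, neuron, hypodermis, oocyte and sperm lists, 0 of 24, 0 of 11, 0 of 7, 0 of 12 and 0 of 23 genes had an unadjusted p under 0.05. The genes with the smallest p there were mlt-10 at 0.27 log2 (SE 0.21), ric-19 at -0.20 log2 (SE 0.10), bli-2 at -0.23 log2 (SE 0.25), cpg-2 at -0.47 log2 (SE 0.34) and msp-19 at -1.23 log2 (SE 0.60). The sperm list stood lower in median, at -1.32 log2, with wide spread between arrays.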

How the data were processed

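Whole young adults gave the total RNA, labelled by a 3' in vitro transcription kit and hybridised to Affymetrix arrays singly, per the labels. Deposited values are log2 levels of probe sets from RMA by the authors, who also used limma, per the submitters' processing notes, with versions not given in the sources used here. Because RMA equalises the arrays' distributions, a shift common to most genes would be removed.

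After leaving out 77 control probe sets, all 9 arrays entered 1 fit of limma 3.58.1 (R 4.3.3, statmod 1.5.0) over 22548 probe sets, with a mean per group, 6 residual and 2.38 prior degrees of freedom. Both mutants together and each mutant strain were compared with wild type, and the strains with each other, with Benjamini-Hochberg adjustment over all probe sets and a threshold of 0.05. Tables and figures used Python 3.11.15, numpy 2.4.6, pandas 2.3.3 and matplotlib 3.10.9. Simulated data for both mutants against wild type had 200 changed among 22548 probe sets and independent noise. Of probe sets shifted by 1 log2, 67% were called, with 9 false calls, and of those shifted by 2 log2, 91.5%, with 6 false calls. The shift was equal on all mutant arrays and no stage difference was simulated, so these shares may not hold for the real arrays.

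The family, the lists, the tests and the rule for named genes were chosen with earlier results of these data known. The rule takes members past the threshold, of which there were 0, the 10 with the smallest p in both mutants, the 3 with the smallest p in each other comparison, the 8 brightest, the 8 with the largest spread, the infection list, and the smallest p of each other list. Alternatives were a replicate block, a filter, a variance trend, array weights, cyclic loess, no shared probe sets, averaging every gene's probe sets, moulting and sperm covariates, only the arrays compared, a threshold of 0.01, and each array left out. The infection list was written from general knowledge, as were those of immune regulators, gut effectors, galectins, intestine, moulting, yolk, neurons, muscle, hypodermis, oocyte and sperm genes.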

Additional observations from a re-analysis of the deposited data

How the results depend on the processing

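Under every alternative run, 0 members passed the adjusted threshold in both mutants and in n4357 n4358 against wild type. With array weights 1 member, clec-61, passed in n4503 nDf57 against wild type (0.83 log2, limma adjusted p = 0.0277, range 0.0277 to 1 over its alternatives) and 4 passed between the strains. These 4 were clec-4, clec-69, which was named after its value was seen, clec-47 (1.83 log2, adjusted p = 0.0452, range 0.0452 to 1) and clec-61 (0.58 log2, adjusted p = 0.0406, range 0.0406 to 1). Of all 22548 probe sets, 37 passed with array weights in n4503 nDf57 against wild type and 142 between the strains. The weights ran from 0.148 for n4357 n4358 replicate 3 to 6.64 for n4503 nDf57 replicate 2. With single arrays left out the counts passing were 0 in all comparisons.

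The count of members at an unadjusted p under 0.05 in both mutants, 8 higher and 3 lower, became 16 and 11 with array weights (all probe sets 6.23% and 4.32%), 4 higher without shared probe sets (1.42%), 13 higher with the sperm covariate (3.92%), and 5 lower with cyclic loess (2.16%) or the moulting covariate (3.44%). With array weights the counts were 20 higher and 15 lower in n4503 nDf57 (9.34% and 5.26%), 15 and 12 in n4357 n4358 (5.61% and 5.08%) and 19 and 26 between the strains (10.6% and 8.59%), alternatives chosen for these comparisons after the data were seen. In both mutants with single arrays left out it ran from 6 to 10 higher and from 2 to 7 lower. The 6 and the 7 came without wild-type replicate 1, beside 2.85% and 2.63% of all probe sets. The 10 came without n4357 n4358 replicate 1, beside 1.88%. A count of 2 lower came without n4357 n4358 replicate 1 or wild-type replicate 2 or 3, beside 1.81%, 0.723% and 1.13%. The family median ran from 0.01 to 0.16 log2, and from -0.01 to 0.10 log2 with single arrays left out. Of 344 alternatives over 19 differences of single genes, 341 kept direction and side of the threshold and 0 reversed. A further 3 newly passed it, those with array weights above, and the cause was not tested. These genes were picked for a small p in the same data. Settings such as the replicate block, or leaving out an array of a group not compared, leave a difference unchanged by design. The count is therefore no test of robustness.

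The sources do not state whether replicate numbers pair the arrays. Of 9 same-number pairs, 3 had a correlation above 0.1 between deviations from group means (range -0.60 to 0.40). The highest correlation, 0.65, joined n4503 nDf57 replicate 1 and n4357 n4358 replicate 3, the arrays with the lowest moulting means. A smaller effect shared by same-number arrays could go unseen beside this, so these values cannot decide whether the arrays are paired. With the replicate block 0 members passed in any comparison. At an unadjusted p under 0.05, 7 stood higher and 3 lower in both mutants, beside 1.63% and 1.37% of all probe sets. The filter on low levels left 125 of the 220 members.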

Other observations

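The clec probe sets that name several genes belong to no single member. That of clec-228 and clec-229 stood at 4.97, 4.49 and 4.5 log2 in n4503 nDf57, at 4.70, 4.49 and 6.37 log2 in n4357 n4358, and at 4.59, 4.73 and 4.77 log2 in wild type, so that n4357 n4358 replicate 3 again stood above every other array. That of clec-49 and clec-48 stood at 10.75, 10.93 and 10.92 log2 in n4503 nDf57, at 9.92, 10.62 and 10.62 log2 in n4357 n4358, and at 10.21, 10.47 and 10.88 log2 in wild type, a difference of 0.35 log2 between n4503 nDf57 and wild type. That of clec-69 and clec-67 differed by 0.51 log2 in n4503 nDf57 and by 0.38 log2 in n4357 n4358. These probe sets were chosen after their values were seen and are given as values only.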
